A study of Homo sapiens with 6 samples.

Results

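The comparison described here is UM-UC-3 cells carrying the second short hairpin against LNMAT1 (sh-LNMAT1#2) and UM-UC-3 cells carrying a control hairpin (sh-NC), chosen by their labels as 2 of 6 RNA-seq libraries. UM-UC-3 is an established human bladder cancer cell line, made from a urothelial tumour. LNMAT1 is the long noncoding RNA listed in the deposited values as LINC01296. Both groups were stable lines made with a lentivirus and selected with puromycin, so each is a selected population and not an acute knockdown. The other libraries were UM-UC-3 with the first hairpin (sh-LNMAT1#1), whose values are set beside those of the second, and 3 libraries labelled 5637, not analysed here. There was 1 library for each construct, so no difference below has a replicate check and no test was possible. Both hairpins are compared with the same control library, and their values are therefore given side by side only.

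Long noncoding RNAs are transcripts that are not translated, and some act by bringing proteins to chromatin. The study asked about such a role for LNMAT1 at the gene of CCL2, a chemokine that draws monocytes and macrophages, through the RNA-binding protein hnRNPL and methylation of histone H3 at lysine 4. A silencing experiment read across the transcriptome shows whether the target and the chemokine moved, and which other programs moved beside them.

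The values are FPKM, fragments scaled to the length of the gene and the depth of the library. Depth, read from genes with a single exon, was 24707000 fragments for sh-NC and 22948000 for sh-LNMAT1#2. Of 50868 genes with values, 11882 had a mean of at least 1 FPKM over the pair and were kept. A log2 change is the difference of log2(FPKM + 0.5) between the libraries and comes out too small for genes of low level. A gene was counted as changed at 2-fold or more. The cells are labelled as bladder cancer, but few urothelial markers were expressed. VIM, which encodes the filament protein vimentin, stood at 332 FPKM in sh-NC and 155 FPKM in sh-LNMAT1#2, and CDH2 (N-cadherin) at 17.5 and 19.9 FPKM. CDH1 (E-cadherin), EPCAM, KRT5, KRT14 and KRT20 were below 0.05 FPKM in both libraries, and of 24 urothelial and luminal markers 4 were kept, led by KRT18, a keratin of simple epithelia, at 19.4 and 25.2 FPKM. PTPRC and CD3E, which mark leukocytes, were listed at 0 in both, and the single kept member of 17 macrophage and leukocyte markers was CD68, a lysosomal protein found in many cells, at 15.4 and 12.97 FPKM. None of 12 endothelial markers was kept.

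The targeted RNA was lower in the silenced library. LINC01296 (ENSG00000244306, chr14:19284653-19337730 on hg38) stood at 14.2 FPKM in sh-NC and 6.70 FPKM in sh-LNMAT1#2, a log2 change of -1.02, beside 6.20 FPKM in sh-LNMAT1#1. GENCODE release 29 lists this gene as DUXAP10, a transcribed pseudogene, and 61.5% of its 31-base words also occur in other genes. The related copy DUXAP9 was at 0.836 and 0.421 FPKM. DUXAP8 has 2 rows, which went from 1.34 to 0.698 FPKM and from 0.260 to 1.26 FPKM. How reads shared by these copies were assigned is not given in the sources used here, so the level of LINC01296 is uncertain to that extent.

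CCL2 (ENSG00000108691, chr17:34255218-34257203) was 25.2 FPKM in sh-NC and 6.78 FPKM in sh-LNMAT1#2, a log2 change of -1.82, and 3.36 FPKM in sh-LNMAT1#1. The values rest on 457 to 1234 fragments in sh-NC and 115 to 309 in sh-LNMAT1#2, the lower bound from its shortest annotated transcript and the upper from its whole exon length. The 95% interval of the log2 change that counting allows, at the lower bound, and without the added 0.5, ran from -2.19 to -1.59 and covers counting error only. HNRNPL, the proposed partner, was level at 29.01 and 29.02 FPKM. VEGFC, a growth factor of lymphatic vessels, was 13.04 FPKM in sh-NC and 16.4 FPKM in sh-LNMAT1#2.

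Across the kept genes, 245 were at least 2-fold higher with sh-LNMAT1#2, 2.06% of those compared, and 169 were at least 2-fold lower, 1.42%. Of all kept genes 51.8% lay above 0 and 48.2% below. The median log2 change was 0.02 and the middle 98% of genes lay between -1.11 and 1.25. A 4-fold limit left 18 and 14 genes. The limit fell in a dense part of the distribution. Within 0.1 on either side of it on the log2 scale lay 152 genes on the higher side and 112 on the lower. DDI2, just inside, was at 4.54 and 9.60 FPKM, and ZNF627, just outside, at 0.594 and 1.69 FPKM. On the lower side BPGM, just inside, was at 2.70 and 1.09 FPKM, and NFKB2, just outside, at 55.0 and 27.3 FPKM. With sh-LNMAT1#1 against the same control, 12055 genes were kept, of which 710 were higher and 636 lower.

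**Figure D1:**
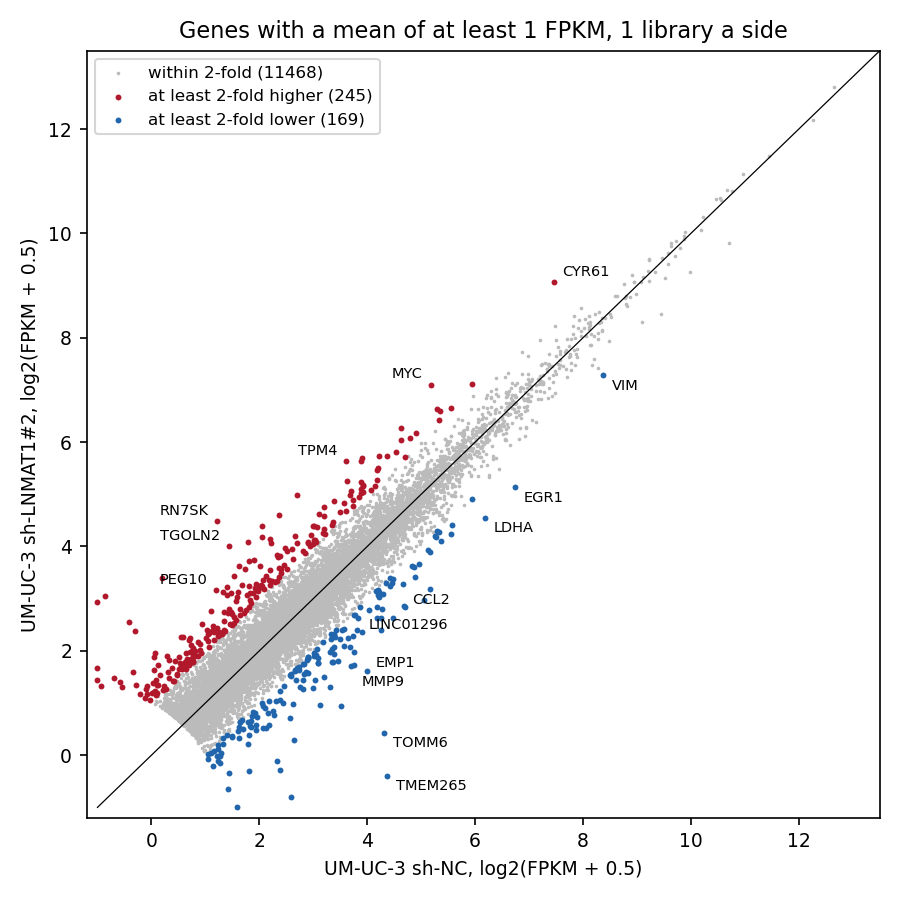
Each point is a kept gene, with log2(FPKM + 0.5) in UM-UC-3 sh-NC on the horizontal axis and in UM-UC-3 sh-LNMAT1#2 on the vertical axis, red for the 245 genes at least 2-fold higher and blue for the 169 at least 2-fold lower. Most genes lie along the line of equality, and CYR61, MYC, VIM, EGR1 and LDHA stand off it at high levels.

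The largest upward differences, among genes that reached 5 FPKM in either library, led with several RNAs whose rows share sequence with other genes. RN7SK, a short noncoding RNA that restrains transcription elongation and lacks a poly(A) tail, was 1.83 FPKM in sh-NC and 22.0 FPKM in sh-LNMAT1#2 (7.05 with sh-LNMAT1#1), which corresponds to 15 and 167 fragments. EIF2S3L, a copy of a translation initiation subunit, was 0.249 and 5.35 FPKM, while its parent EIF2S3, which holds 36.5% of its words, was 81.2 and 86.1 FPKM. RPL17-C18orf32, a readthrough of a ribosomal protein gene into its neighbour, was 4.66 and 23.8 FPKM, and 96.3% of its words are shared. RPL17 itself stood at 39.0 and 40.2 FPKM. The row of MATR3, a nuclear matrix protein, that was among the largest upward differences went from 2.56 to 11.8 FPKM, but the other MATR3 row went from 21.8 to 13.52 FPKM and the sum of both moved by 0.05 on the log2 scale. RABL6, a GTPase-like protein and the last of the 12 largest downward differences, showed the same division: 1 row went from 5.46 to 1.13 FPKM and the other from 3.58 to 9.13 FPKM, with a change of 0.17 for their sum. For these 2 genes the rows moved in opposite directions while the summed FPKM stayed near level. How reads were assigned between the rows is not given in the sources used here.

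Other large upward differences sat in rows with little shared sequence. MYC, the growth-promoting transcription factor, was 35.9 FPKM in sh-NC, 70.2 in sh-LNMAT1#1 and 137 FPKM in sh-LNMAT1#2, a log2 change of 1.91. TPM4, a tropomyosin that binds along actin filaments, was 11.7 FPKM in sh-NC and 49.2 FPKM in sh-LNMAT1#2 (40.2 with sh-LNMAT1#1). GNPDA1, which turns glucosamine 6-phosphate back into fructose 6-phosphate, was 3.64 and 20.5 FPKM (16.6 with sh-LNMAT1#1). Both silenced libraries lay above the control for these genes. TGOLN2, a protein that cycles through the trans-Golgi network, differed between the hairpins: it was 2.21 FPKM in sh-NC, 2.54 in sh-LNMAT1#1 and 15.5 FPKM in sh-LNMAT1#2. LURAP1L, PEG10 (an imprinted gene derived from a retrotransposon) and KLF16 (a zinc finger repressor) were also among the 12, with log2 changes of 2.15, 1.98 and 1.91.

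The largest downward differences were of both kinds. TMEM265, a predicted membrane protein, went from 20.2 to 0.263 FPKM, which corresponds to 496 and 6 fragments. Every word of TMEM265 also occurs in an overlapping transcript, RP11-2C24.9, which went from 1.42 to 5.19 FPKM. TOMM6, a small subunit of the mitochondrial import pore, went from 19.4 to 0.851 FPKM, and all its words likewise lie in an overlapping gene. VIM-AS1, antisense to VIM, went from 8.20 to 1.45 FPKM. Its exons overlap those of the other strand over 32.2% of their length. The library kit keeps strand, but whether the counting used it is not given in the sources used here.

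MMP9, the gelatinase that degrades basement membrane collagen, was 12.9 FPKM in sh-NC, 2.08 in sh-LNMAT1#1 and 2.80 FPKM in sh-LNMAT1#2. With a single annotated transcript it could be read as 747 fragments in sh-NC and 150 in sh-LNMAT1#2. CDK6, the kinase that drives entry into S phase, was 25.6, 4.20 and 6.64 FPKM in the same order. GFPT2, the rate-limiting step of hexosamine synthesis, was 35.3, 12.1 and 8.54 FPKM. For these genes both silenced libraries lay well below the control. Of the 3 UM-UC-3 libraries, only that of the second hairpin was low for a further set. EMP1, a membrane protein induced by growth factor signalling, was 15.5 FPKM in sh-NC, 27.0 in sh-LNMAT1#1 and 2.55 FPKM in sh-LNMAT1#2. SSX2IP, a centrosomal protein, was 9.38, 9.75 and 1.99 FPKM. MEX3C, an RNA-binding ubiquitin ligase, was 10.96, 8.01 and 1.43 FPKM. SSB, the La protein that protects the ends of RNA polymerase III transcripts, was 32.7, 26.5 and 7.36 FPKM. IER2, an immediate early gene, lay in between, at 12.4, 6.81 and 2.79 FPKM.

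**Figure D2:**
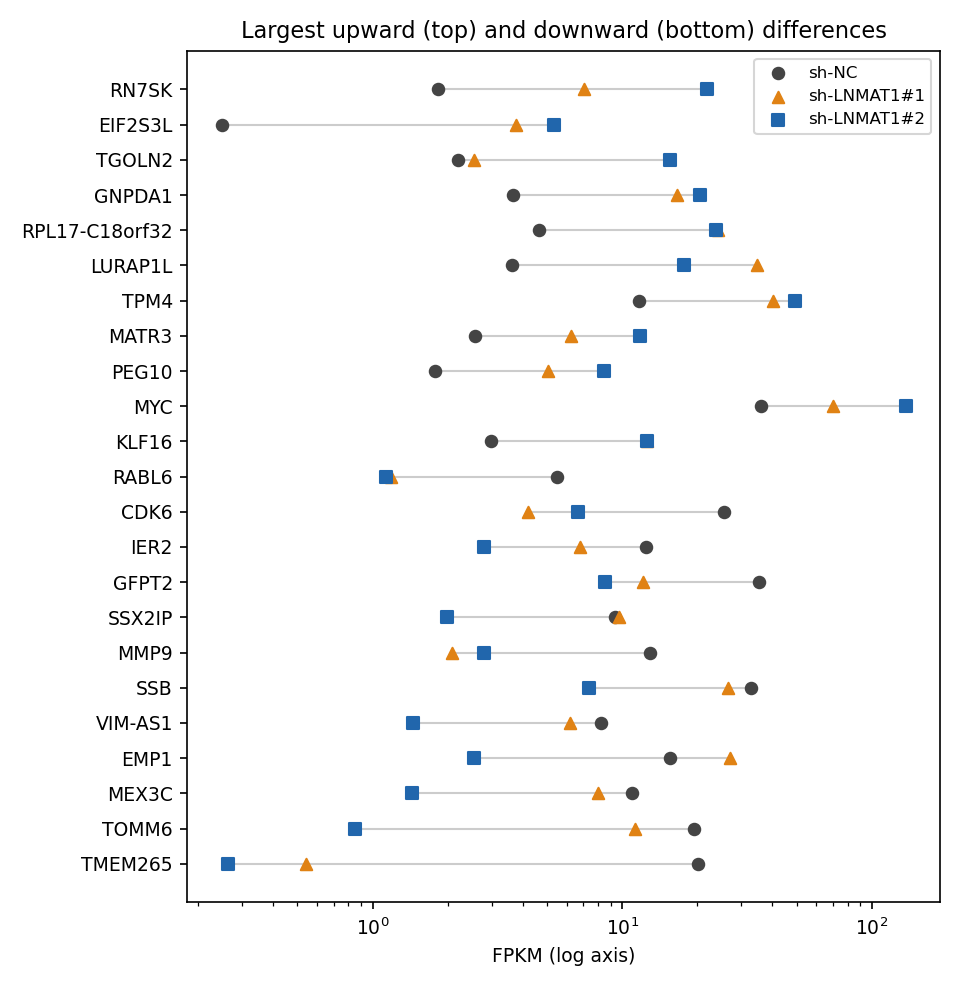
FPKM on a log axis in the 3 UM-UC-3 libraries for genes of the largest upward and downward differences with sh-LNMAT1#2, with a circle for sh-NC, a triangle for sh-LNMAT1#1 and a square for sh-LNMAT1#2. The triangle lies beside the square for GNPDA1, KLF16, CDK6 and MMP9, and beside the circle for TGOLN2 and SSX2IP; MATR3 and RABL6 are the rows that changed most of the 2 each has.

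Chemokines and cytokines did not move as a block. Of 19 macrophage and lymphocyte chemokines, 4 were kept, 1 at least 2-fold higher and 1 lower, against 2.06% and 1.42% of all kept genes. The lower was CCL2. CCL5, which attracts T cells and macrophages, was 12.5 FPKM in sh-NC and 9.31 FPKM in sh-LNMAT1#2, a log2 change of -0.40, against 3.62 FPKM in sh-LNMAT1#1. CCL20, a ligand of CCR6 on lymphocytes and dendritic cells, was 2.997 FPKM in sh-NC, 0.301 in sh-LNMAT1#1 and 8.94 FPKM in sh-LNMAT1#2, so that the silenced libraries lay on opposite sides of the control. Of 5 kept neutrophil chemokines, 1 was at least 2-fold higher and 0 lower, against the same shares of all kept genes, with a median of 0.20. CXCL2 was 27.0 and 66.8 FPKM, CXCL1 was 73.9 and 119 FPKM, and CXCL8 was 180 and 158 FPKM. With sh-LNMAT1#1, CXCL2 was 17.98, CXCL1 54.8 and CXCL8 40.7 FPKM.

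Of 22 interleukins and growth factors of inflammation, 11 were kept. Among these, 3 were at least 2-fold higher and 2 lower, against 2.06% and 1.42% of all kept genes. IL11, a cytokine of the IL-6 family, was 7.60 FPKM in sh-NC, 72.0 in sh-LNMAT1#1 and 20.5 FPKM in sh-LNMAT1#2. IL18, an activator of interferon gamma release, was 8.63 FPKM in sh-NC and 19.7 FPKM in sh-LNMAT1#2. TNF was 1.84 and 4.63 FPKM, and 0.161 FPKM in sh-LNMAT1#1. On the lower side were CSF2, the granulocyte-macrophage growth factor, at 9.72 and 3.60 FPKM, and EBI3, a subunit of IL-27 and IL-35, at 1.85 and 0.588 FPKM. CSF1, the growth factor of macrophages, was 11.8 and 7.51 FPKM, short of 2-fold. CCL2 and CSF2 were thus lower with both hairpins, while TNF, CCL20 and CXCL2 were above the control with the second and below it with the first.

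**Figure D3:**
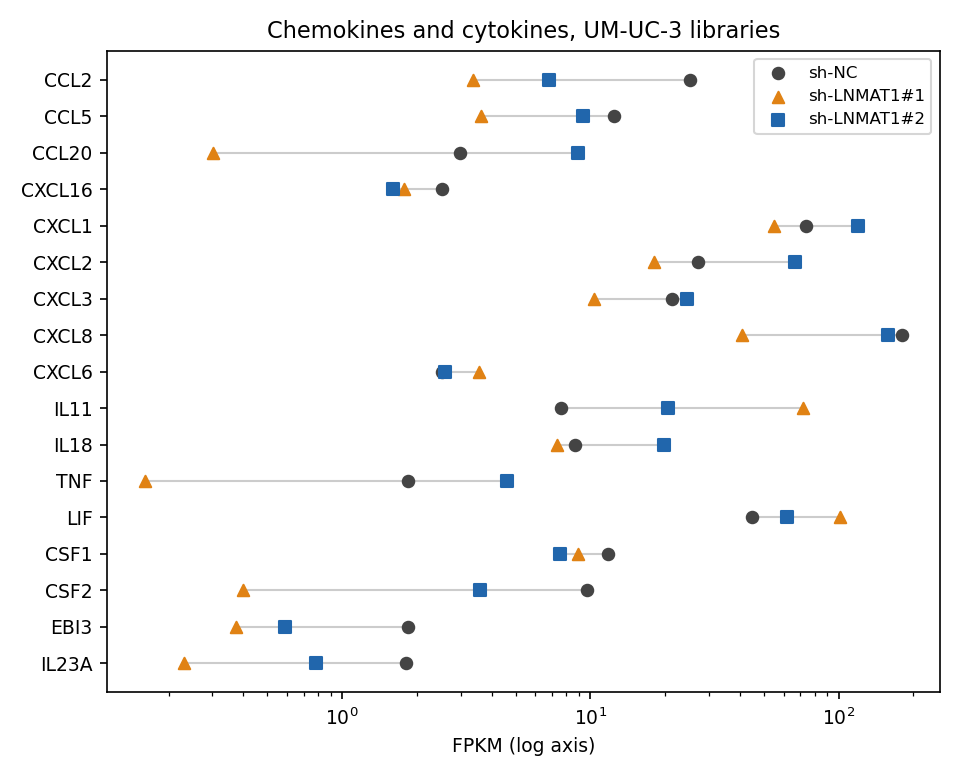
FPKM on a log axis of the kept chemokines and of the cytokines named or listed with them in the 3 UM-UC-3 libraries, with a circle for sh-NC, a triangle for sh-LNMAT1#1 and a square for sh-LNMAT1#2. For CCL2, CSF2, EBI3 and IL23A both silenced libraries lie below the control, and for CCL20, TNF, IL18 and CXCL2 they lie on either side of it.

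The widest gap between the list medians of the hairpins, 1.68 on the log2 scale, was that of the interferon-stimulated genes. Interferons switch on a shared set of antiviral genes, and NF-kB switches on its own inhibitors. Of 40 kept interferon-stimulated genes, 1 was at least 2-fold higher with sh-LNMAT1#2 and 0 were lower, against 2.06% and 1.42% of all kept genes. Their median log2 change was 0.15, against 0.02 over all kept genes. With sh-LNMAT1#1 the median of the same genes was -1.53 and 32 were at least 2-fold lower. Among all 12055 genes kept with that hairpin, 636 were lower. BST2, which tethers budding viruses to the cell surface, was 3.77 FPKM in sh-NC, 0.610 in sh-LNMAT1#1 and 8.60 FPKM in sh-LNMAT1#2. ISG15, a ubiquitin-like modifier, was 146, 40.6 and 249 FPKM. OAS2, a sensor of double-stranded RNA, was the exception among the large differences, at 5.90, 0.805 and 3.05 FPKM. IFNB1, which encodes interferon beta and is no member of the list, was 0.754 FPKM in sh-NC, 0.261 in sh-LNMAT1#1 and 2.28 FPKM in sh-LNMAT1#2; it was chosen after its values were seen.

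Of 18 kept NF-kB subunits and feedback genes, 2 were at least 2-fold higher and 0 lower, against 2.06% and 1.42% of all kept genes. The list median was 0.08, and the median with sh-LNMAT1#1 was -0.97. NFKBIB and NFKBIZ, members of the IkB family, were 11.3 and 28.1 FPKM, and 3.03 and 7.34 FPKM. TNFAIP3, the deubiquitinase A20, was 4.22 FPKM in sh-NC, 1.59 in sh-LNMAT1#1 and 8.89 FPKM in sh-LNMAT1#2. TRAF1, an adaptor of TNF receptors, was lower with both, at 75.6, 2.49 and 39.8 FPKM. Against 1.42% of all kept genes, 1 of 19 kept genes of MHC class I and antigen processing was at least 2-fold lower. That was ERAP2, a peptide-trimming enzyme, at 3.71 and 1.42 FPKM, while HLA-B, HLA-C and TAP1 had log2 changes of 0.43, 0.39 and 0.43. Of 13 kept immune checkpoint ligands, 1 was at least 2-fold higher and 0 lower, beside 2.06% and 1.42% of all kept genes. The higher was CD274, which encodes PD-L1, at 1.68 and 4.70 FPKM.

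Genes of cholesterol synthesis and uptake had the lowest median of the lists with at least 5 kept members. The pathway builds sterols from acetyl-CoA, and its genes are switched on together by SREBP2 when sterols run short. Of 23 kept genes, 3 were at least 2-fold lower and 0 higher, with a median log2 change of -0.47, and 18 lay below 0. Over all kept genes 1.42% were at least 2-fold lower, 2.06% were higher and 48.2% lay below 0. HMGCS1, which makes HMG-CoA, was 18.7 FPKM in sh-NC, 6.56 in sh-LNMAT1#1 and 5.66 FPKM in sh-LNMAT1#2. SC5D, a late desaturase, was 6.95 and 3.13 FPKM, and STARD4, a sterol carrier, was 5.53 and 2.44 FPKM. MSMO1, a sterol oxidase, was 35.2 and 19.3 FPKM, short of 2-fold. PMVK, a kinase of the mevalonate branch, went the other way, at 10.2 and 16.7 FPKM. Fatty acid synthesis, which shares part of this control, had 0 of 14 kept genes past 2-fold and a median of -0.13, with SCD at 120 and 96.7 FPKM.

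Since many sterol genes carry a CCAAT box, which the factor NF-Y binds beside SREBP, the promoters in RefSeq (GRCh38.p14, 250 bases before to 50 after each start) were searched for CCAAT on both strands. A match was found for 15 of the 17 listed genes that have a promoter there and for 39.7% of all 27305 genes in that set. It was not particular to this list: 29 of 35 G2/M genes and 8 of 17 immediate early genes had a match. A match is a description of the letters only. RefSeq lists 2 starts for HMGCS1, the member with the largest difference. The window of 1 (chr5:43313363-43313662, minus strand) is shown with its matches in capitals, both as ATTGG on this strand, and the window of the other has 0 matches.
HMGCS1: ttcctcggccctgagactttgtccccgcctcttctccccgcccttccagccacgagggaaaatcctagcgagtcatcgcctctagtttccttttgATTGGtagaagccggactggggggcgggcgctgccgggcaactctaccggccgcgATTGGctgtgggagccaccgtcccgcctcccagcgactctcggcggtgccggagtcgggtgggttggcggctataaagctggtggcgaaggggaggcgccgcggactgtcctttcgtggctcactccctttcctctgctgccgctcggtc

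Most cell cycle genes were lower, by a small amount. Of 41 kept G2/M genes, 0 passed 2-fold in either direction with sh-LNMAT1#2, but 35 lay below 0, against 48.2% of all kept genes, and the median log2 change was -0.34. With sh-LNMAT1#1 all 41 lay below 0, with a median of -1.30. KIF4A, a chromosome-bound motor, was 43.3 FPKM in sh-NC, 10.4 in sh-LNMAT1#1 and 22.5 FPKM in sh-LNMAT1#2. MKI67, the proliferation marker Ki-67, was 41.1, 7.49 and 22.5 FPKM, and TOP2A, which untangles replicated DNA, was 99.6, 28.6 and 61.1 FPKM. In each of these the library with the second hairpin lay between the control and the first. The 36 G1/S and replication genes had a median of -0.31. Among them, 3 were at least 2-fold lower and 0 higher, against 1.42% and 2.06% of all kept genes. Besides CDK6, these were CLSPN, a replication checkpoint adaptor, at 12.9 and 4.38 FPKM, and CCNE2, a cyclin of S phase entry, at 2.94 and 1.05 FPKM. TYMS, which makes thymidylate, was 41.7 and 22.9 FPKM and CCND1 was 123 and 77.5 FPKM. In bulk RNA, fewer cycling cells and less of these RNAs in each cell cannot be told apart.

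Genes of late cell cycle often hold the CHR element near their start, whose letters are TTTGAA. On both strands it was present in 26 of the 35 G2/M genes with a promoter in the RefSeq set and in 18.2% of all genes there. The promoter of KIF4A (chrX:70289854-70290153, plus strand), the member of the list with the largest difference, has 1 match, in capitals, which does not overlap a CCAAT.
KIF4A: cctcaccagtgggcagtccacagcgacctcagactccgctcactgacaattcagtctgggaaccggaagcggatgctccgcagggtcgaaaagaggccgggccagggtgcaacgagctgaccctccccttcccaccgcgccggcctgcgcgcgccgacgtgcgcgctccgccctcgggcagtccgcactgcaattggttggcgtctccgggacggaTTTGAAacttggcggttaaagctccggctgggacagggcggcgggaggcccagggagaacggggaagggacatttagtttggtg

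Most immediate early genes lay above the control, while 2 lay at least 2-fold below it. These genes respond within minutes to growth factors, some through serum response factor (SRF) bound to the CArG box. Of 23 kept members, 19 lay above 0, against 51.8% of all kept genes, and the median was 0.45. Past 2-fold, 3 were higher and 2 lower, against 2.06% and 1.42% of all kept genes. CYR61, a matricellular protein and target of YAP, was 176 FPKM in sh-NC, 305 in sh-LNMAT1#1 and 534 FPKM in sh-LNMAT1#2. DUSP5, a nuclear phosphatase of ERK, was 38.5, 106 and 99.2 FPKM. MYC is the other member that was higher. EGR1, a zinc finger factor induced by ERK, was 107, 61.3 and 34.8 FPKM and IER2, already described, was the other that was lower. Among 17 kept ERK feedback genes 14 lay below 0, against 48.2% of all kept genes. The list median was -0.34, while that with sh-LNMAT1#1 was 0.32. DUSP5 was the 1 member at least 2-fold higher and EMP1 the lowest of 2 lower, against 2.06% and 1.42% of all kept genes. SH2B3, an adaptor that dampens cytokine receptors, was 28.0 and 11.8 FPKM, and DUSP6, the cytoplasmic phosphatase of ERK, was 14.2 FPKM in sh-NC, 39.7 in sh-LNMAT1#1 and 9.91 FPKM in sh-LNMAT1#2.

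A CArG box was present in the promoters of 1 of the 17 immediate early genes with a promoter in the RefSeq set, EGR1, and of 1.60% of all genes there. EGR1 (chr5:138465229-138465528, plus strand) has 2. Of 3 listed starts of TPM4, 1 (chr19:16067288-16067587, plus strand) has 1 and the others have 0. They are shown together, boxes in capitals, because EGR1 was lower and TPM4 higher in the same library.
EGR1: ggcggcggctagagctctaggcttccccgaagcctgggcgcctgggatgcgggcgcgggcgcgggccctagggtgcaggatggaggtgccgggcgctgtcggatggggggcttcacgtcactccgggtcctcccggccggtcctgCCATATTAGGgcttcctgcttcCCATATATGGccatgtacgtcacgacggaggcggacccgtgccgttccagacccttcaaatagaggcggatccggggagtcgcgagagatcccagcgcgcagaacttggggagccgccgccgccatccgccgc
TPM4: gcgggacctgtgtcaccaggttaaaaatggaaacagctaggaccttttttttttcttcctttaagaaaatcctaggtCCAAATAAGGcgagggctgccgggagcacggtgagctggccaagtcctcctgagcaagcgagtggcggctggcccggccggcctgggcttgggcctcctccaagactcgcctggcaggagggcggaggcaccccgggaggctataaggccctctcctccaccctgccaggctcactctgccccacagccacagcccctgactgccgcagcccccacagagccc
Of 22 kept YAP/TAZ and SRF targets, only CYR61 passed 2-fold, where 2.06% of all kept genes were higher and 1.42% lower. CTGF was 227 and 341 FPKM, SRF itself was 27.0 and 43.0 FPKM, and VCL, which links integrins to actin, was 52.8 and 30.9 FPKM. Of 30 actin and contractile genes, TPM4 alone passed 2-fold, with TPM2 at 31.6 and 62.6 FPKM and ACTB at 92.9 and 151 FPKM.

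The early targets of TGF-beta signalling had the highest median of the lists with at least 5 kept members, 0.51. Of 17 kept, 12 lay above 0, against 51.8% of all kept genes. At 2-fold or more, 2 were higher and 0 lower, against 2.06% and 1.42% of all kept genes. ID3, an inhibitor of helix-loop-helix factors, was 29.6 FPKM in sh-NC, 37.7 in sh-LNMAT1#1 and 71.4 FPKM in sh-LNMAT1#2. PMEPA1, a feedback inhibitor, was 1.19, 3.09 and 2.95 FPKM. SKI, a repressor of SMADs, was 4.80 and 9.61 FPKM and TGFBI, a matrix protein, was 14.2 and 26.9 FPKM, both close to 2-fold. COL4A1 and COL4A2, the collagen chains encoded side by side, went apart, from 2.45 to 5.01 FPKM and from 8.21 to 4.01 FPKM. The BMP list, which holds ID3 too, had a median of 0.25 with 1 of 20 past 2-fold. ID1 was 17.6, 79.5 and 31.4 FPKM.

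Adhesion and matrix genes changed one by one. VIM, among the most abundant mRNAs of these cells, was 332 FPKM in sh-NC, 116 in sh-LNMAT1#1 and 155 FPKM in sh-LNMAT1#2. It was the only 1 of 9 kept mesenchymal markers past 2-fold, where 1.42% of all kept genes were lower. ZEB1, a repressor of epithelial genes, was 12.5 and 8.67 FPKM. Of 16 matrix metalloproteinases and inhibitors, 2 were at least 2-fold lower and 1 higher, against 1.42% and 2.06% of all kept genes. MMP14, a membrane-bound collagenase, was 38.8 FPKM in sh-NC, 95.7 in sh-LNMAT1#1 and 19.1 FPKM in sh-LNMAT1#2, and ADAM15, a disintegrin, was 2.13, 8.67 and 8.83 FPKM. PERP, a desmosomal protein and p53 target, was 12.4, 54.5 and 31.3 FPKM. ITGA2, a collagen-binding integrin chain, was 2.63 and 1.05 FPKM. COL17A1, a hemidesmosomal collagen, was 3.40 FPKM in sh-NC, 0.216 in sh-LNMAT1#1 and 1.16 FPKM in sh-LNMAT1#2. PLAU, the urokinase that activates plasminogen, was 549, 208 and 317 FPKM.

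HOX genes, which record position along the body axis, were mostly lower: of 14 kept, 12 lay below 0 and 3 were at least 2-fold lower, against 48.2% and 1.42% of all kept genes, with a median of -0.40. HOXB7 was 9.98 and 4.49 FPKM and HOXB2 was 19.8 and 9.34 FPKM. HOXC8 was 2.59 FPKM in sh-NC, 4.13 in sh-LNMAT1#1 and 0.761 FPKM in sh-LNMAT1#2. With sh-LNMAT1#1 the median of the HOX list was -0.24, and 12 of the 14 lay below 0. The list of hnRNPL partners and H3K4 methylation machinery had 0 of 24 kept genes past 2-fold and a median of -0.15. Among its best expressed members, SYNCRIP, an RNA-binding protein, was 42.7 and 46.0 FPKM and WDR5, a subunit of the H3K4 methyltransferases, was 32.9 and 41.2 FPKM. KMT2A, a methyltransferase of H3K4, was 15.1 and 9.80 FPKM. The list does not hold every such enzyme. SETD7, a methyltransferase of H3K4 outside it, was 2.27 FPKM in sh-NC, 9.45 in sh-LNMAT1#1 and 8.10 FPKM in sh-LNMAT1#2. It was picked after its values were seen. Of 25 chromatin silencers, 2 were at least 2-fold higher and 0 lower, against 2.06% and 1.42% of all kept genes. The higher were the deacetylases HDAC1, at 9.73 and 20.7 FPKM, and HDAC9, at 1.16 and 3.11 FPKM. The DNA methyltransferase DNMT1 was 13.7 and 8.45 FPKM.

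In metabolism and stress, single genes stood out from lists that were otherwise level. LDHA, which reduces pyruvate to lactate, was 72.5 FPKM in sh-NC, 28.3 in sh-LNMAT1#1 and 23.0 FPKM in sh-LNMAT1#2, while the 20 kept glycolysis genes had a median of -0.12. PFKL, the liver phosphofructokinase, was 3.11 and 7.09 FPKM. BNIP3, a mitophagy receptor induced by low oxygen, was 37.6, 15.7 and 17.9 FPKM, but ADM, a vasodilator peptide of the same hypoxia list, was 4.36, 3.90 and 9.42 FPKM. The NRF2 targets TXNRD1 and GCLM, which supply thioredoxin reductase and a subunit for glutathione synthesis, were 46.4 and 18.3 FPKM, and 21.5 and 9.34 FPKM. With sh-LNMAT1#1 TXNRD1 was 72.9 FPKM. HMOX1, heme oxygenase, was 30.8, 74.9 and 15.9 FPKM, so this list too differed between the hairpins. PRDX4, a peroxidase of the endoplasmic reticulum, was 14.4, 59.5 and 51.1 FPKM. BAG3, a co-chaperone, was 29.2, 36.3 and 10.2 FPKM, and MCL1, which guards mitochondria from apoptosis, was 35.3, 28.3 and 14.4 FPKM. SQSTM1, the autophagy receptor p62, was 61.3, 91.4 and 137 FPKM.

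Signalling and guidance genes past 2-fold were few in each list. In the Wnt list 2 of 20 kept genes were higher and 0 lower, against 2.06% and 1.42% of all kept genes. DKK1, a secreted antagonist, was 2.55 FPKM in sh-NC, 1.03 in sh-LNMAT1#1 and 8.23 FPKM in sh-LNMAT1#2. The other, the ligand WNT10B, was 1.57, 2.62 and 4.47 FPKM. IGFBP3, which binds insulin-like growth factors, was 0.999, 3.56 and 4.28 FPKM, 1 of 11 kept genes of the IGF system past 2-fold. EFNA3, an ephrin ligand, was 0.742, 2.78 and 2.54 FPKM, 1 of 19 in its list. HES4, a Notch target, was 7.57, 8.15 and 17.0 FPKM, 1 of 13. Silenced libraries lay together above the control for IGFBP3 and EFNA3 and on either side of it for DKK1. For HES4 both lay above the control, that of the first hairpin close to it. MAP1B, which stabilises microtubules, was 13.7, 15.3 and 5.71 FPKM, the 1 of 16 kept tubulin and microtubule genes that was at least 2-fold lower. Of the 52 lists with at least 5 kept members, 43 had a median within 0.3 of 0, and the medians ran from -0.47 to 0.51.

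Several broad programs did not pass 2-fold in any member. The 81 cytosolic ribosomal protein genes had a median of 0.03. RPS6, the best expressed, was 556 and 576 FPKM, and RPL12 was furthest from level, at 122 and 76.3 FPKM. The 42 nuclear subunits of the respiratory chain had a median of 0.05 and the 22 genes of the unfolded protein response -0.04, with HSPA5, the chaperone BiP, at 262 and 329 FPKM. Of 37 kept ATF4 targets 31 lay above 0, against 51.8% of all kept genes, with a median of 0.28, led by VEGFA at 2.42 and 4.80 FPKM. GAPDH was 834 and 757 FPKM. Reference genes were not all level, and YWHAZ was 44.1 and 24.7 FPKM.

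Some groups were seen only once the values had been read, and are given as descriptions. Of 35 kept canonical histone genes, whose mRNAs mostly end without a poly(A) tail, 32 lay above 0 and 7 were at least 2-fold higher, against 51.8% and 2.06% of all kept genes, with a median log2 change of 0.48. HIST1H1C, a linker histone, was 14.2, 37.0 and 37.1 FPKM and HIST1H2BK was 14.3, 32.2 and 33.9 FPKM. HIST1H1E and HIST1H3B, also among the higher, were 0.537 and 0.886 FPKM in sh-NC and met the mean filter only through sh-LNMAT1#2. With sh-LNMAT1#1 the median of the group was -0.00. RN7SK was high in the same library, and the part that the share of RNA without a poly(A) tail has in these values was not tested. Of 232 kept protein-coding genes with ZNF symbols, which encode DNA-binding zinc fingers, 23 were at least 2-fold higher and 2 lower, or 9.91% and 0.862% against 2.06% and 1.42% of all kept genes, with a median of 0.22. ZNF664 was 2.14, 10.7 and 7.89 FPKM and ZNF184 was 1.16, 2.49 and 3.81 FPKM. ZNF681 and ZNF845 were among several higher members below 1 FPKM in sh-NC, at 0.439 and 0.534 FPKM. Such members met the mean filter only through sh-LNMAT1#2. ZNF562, 1 of the lower, met it only through sh-NC, at 1.94 and 0.535 FPKM. On chromosome 19, 30 of 738 kept genes were higher (4.07%) and 6 lower (0.813%). Without its ZNF genes the chromosome had 17 higher (2.60%) and 5 lower (0.763%) of 655, beside 2.06% and 1.42% of all kept genes.

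By gene class, 337 kept lincRNAs had 19 higher (5.64%) and 4 lower (1.19%) and a median of 0.21. The 9906 protein-coding genes had 194 higher (1.96%) and 145 lower (1.46%) and a median of 0.01. Over all kept genes the shares were 2.06% and 1.42%. NEAT1, the scaffold of paraspeckles, was 25.6, 75.7 and 51.9 FPKM. ZEB1-AS1, antisense to ZEB1, was 1.72, 4.29 and 4.09 FPKM, with 9.55% of its exon bases overlapping the other strand. LINC01111 was 0.584, 2.83 and 2.80 FPKM, and met the mean filter only through sh-LNMAT1#2. DANCR was 10.1, 21.1 and 5.90 FPKM, short of 2-fold.

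The change also varied with the base composition of transcripts. Genes were divided into 5 equal bins of GC content. In the lowest bin, 27.8% to 40.7%, the median log2 change was -0.09, with 38 genes higher and 51 lower. In the highest bin, 57.4% to 75.3%, it was 0.10, with 60 higher and 20 lower. Over 11823 genes Spearman's rho between GC content and log2 change was 0.20, and between transcript length and log2 change -0.12; these are correlations across genes of 1 pair of libraries, which are not independent replicates. After the median of each GC decile was taken off, a choice made after seeing the data, the medians were -0.50 for cholesterol genes, -0.31 for G2/M genes, 0.45 for TGF-beta targets and 0.11 for interferon-stimulated genes. Genes with a mean of 1 to 2 FPKM were higher in 2.29% and lower in 1.37%, and genes of 20 to 100 FPKM in 2.34% and 1.13%. Of the 232 genes of 100 FPKM or more, 1 was higher and 1 lower, 0.431% each.

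**Figure D4:**
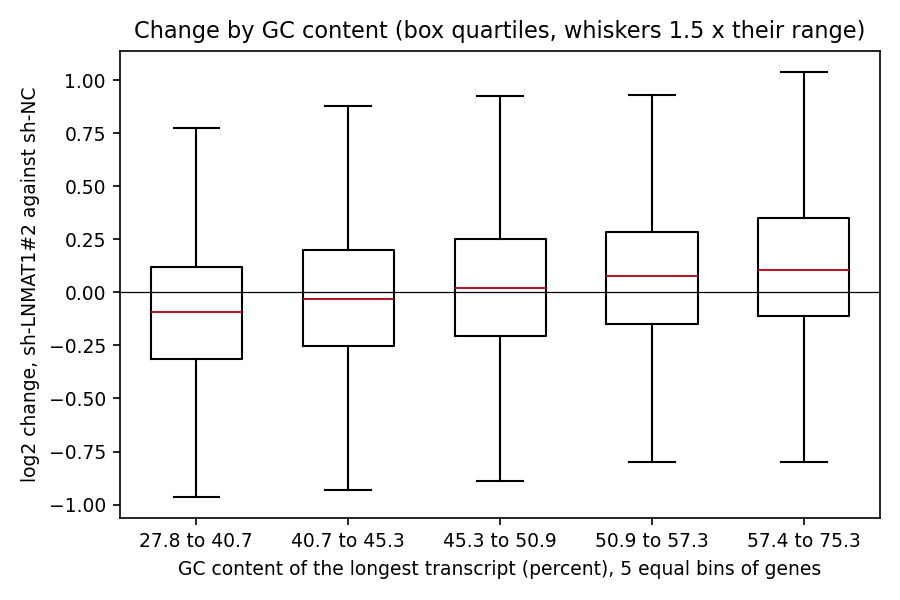
Log2 change of kept genes with sh-LNMAT1#2 against sh-NC in 5 equal bins of GC content of the longest transcript, in percent, with boxes at the quartiles, a red line at the median and whiskers to 1.5 times the box. The median moves from -0.09 in the lowest bin to 0.10 in the highest.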

How the data were processed

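RNA was extracted with TRIzol and RNeasy columns and sequenced from a stranded mRNA kit on an Illumina instrument, per the labels. The authors deposited FPKM per gene, 1 column for each of 6 libraries, and 1 row that held no values was dropped. The submitters' processing notes name HISAT2 and hg38; the counting program and annotation are not given in the sources used here, so reads that fit several genes may have been split or assigned in ways that differ between rows.

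Samples were grouped by title. Values were compared on log2(FPKM + 0.5) among genes whose mean over the pair reached 1 FPKM, with 2-fold as the limit and no test, since each group has 1 library. The 12 largest upward and 12 largest downward differences among genes reaching 5 FPKM with a symbol (no clone, pseudogene or histone name) were named, with up to 6 members of each list described and a fixed set that includes LINC01296, DUXAP8, DUXAP9, CCL2, CCL5, VEGFC, HNRNPL, GAPDH and ACTB. The members and the 60 gene lists were chosen with earlier results of these data known. A few of the genes so named are not reported here.

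Depth was taken as the number of fragments at which single-exon FPKM values came out whole, to within 0.05 of a fragment, for 99.9% of values or more. Gene class, GC content, 31-base words shared between genes and strand overlap came from GENCODE release 29, where 11831 of the 11882 kept identifiers were found. Promoters came from RefSeq (GRCh38.p14). Alternatives covered the pseudocount, the filter, scaling, the fold limit and the first hairpin. Python 3.11.15 with numpy 2.4.6, pandas 2.3.3, scipy 1.17.1 and matplotlib 3.10.9 was used, and the calculations were tested on simulated data.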

Additional observations from a re-analysis of the deposited data

How the results depend on the processing

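No paired analysis was possible because there was 1 library for each construct, and no replicate could be left out. Counts of genes higher and lower stayed within 1.5 times the 245 and 169 given under pseudocounts of 0.1 and 1, without the filter, under both scalings, after GC centring and without genes that share at least 50% of their words (206 and 147), the last pair of settings chosen after seeing the data. They moved to 123 and 87 with a mean of at least 5 FPKM, to 934 and 726 at a 1.5-fold limit, to 18 and 14 at a 4-fold limit, and to 710 and 636 with the first hairpin. The log2 change of LINC01296 was -1.07 and -0.98 with pseudocounts of 0.1 and 1, the latter short of 2-fold, and -1.13 with the first hairpin.

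With the first hairpin in place of the second, 15 of the changed genes followed through the settings had the opposite sign. The log2 change was 0.053 for SSX2IP, 0.78 for EMP1, 0.58 for HOXC8, 0.65 for TXNRD1, -0.995 for DKK1, 0.31 for BAG3, -0.14 for ADM, 0.49 for ITGA2, -1.94 for BST2, -1.82 for TNF, -0.22 for IL18, -2.13 for CCL20, 1.29 for MMP14, -0.58 for CXCL2 and 0.16 for MAP1B. Of other genes given at 2-fold or more, IFNB1 was at -0.72 and DDI2 at -0.04. The cause was not tested. Of 81 genes past 2-fold among those followed through the settings, 63 passed it again with a pseudocount of 1 and 80 under either scaling. Genes passing it again with the first hairpin are not counted, because that comparison shares the control library. List medians moved by up to 0.0221 under either scaling, 0.115 after GC centring (51 of 59 kept their sign) and 0.739 with a mean of at least 5 FPKM (53 of 58). With 1 library a side, the spread between cultures is unknown, and differences near 2-fold cannot be told from it.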
